A study of Mus musculus with 2 samples.

Results

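The genes described here encode the subunits of AMP-activated protein kinase (AMPK) and the kinases that switch it on. They were measured in gastrocnemius muscle, a mixed-fiber muscle of the calf. The set was defined by gene identity and its rule used no signal on the arrays, but it was chosen with earlier results of these data known. It holds 9 genes, namely 7 AMPK subunit genes (Prkaa1, Prkaa2, Prkab1, Prkab2, Prkag1, Prkag2, and Prkag3) and 2 kinase genes (Stk11 and Camkk2), out of 21366 genes that could be named on the arrays. All 9 were well above background in both pools, as were 15493 of the 16660 genes seen on at least 1 array. The 9 genes were read by 10 named probes with 19 spots on each array, because Camkk2 has 2 named probes and the Prkag1 probe is spotted 10 times. In the mouse genome (GRCm38.p6), Prkaa1 and Prkag1 lie on chromosome 15, Prkab1, Prkag2, and Camkk2 on chromosome 5, Prkaa2 on chromosome 4, Prkab2 on chromosome 3, Prkag3 on chromosome 1, and Stk11 on chromosome 10.

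RNA was pooled from 5 FOXO1-Tg mice, which overexpress the transcription factor FOXO1 in skeletal muscle, and from 6 wild-type control mice. All mice were 25 weeks old, and no other allele or treatment is given for either group. The promoter that drives the transgene is not given in the sources used here. Each pool was hybridized to 1 single-color array, so there is no replicate, no test across mice, and no p-value. The values below are the scanner software's background-subtracted signals in intensity units. Log2 ratios (FOXO1-Tg over wild-type) were taken after each signal was divided by the 75th percentile of its array, which was 844 for the FOXO1-Tg pool and 771 for the wild-type pool. The error given with a ratio is the scanner's own, which covers the array measurement and not the differences between mice. The scanner error was 0.20 for the median gene and nearly the same for every bright probe, because it was a near fixed share of a bright signal. It was averaged over repeated spots, so more spots did not lower it. A gap counted in scanner errors is thus not a precision measured for that gene. Foxo1 checks the labels of the pools, and it read 279457 in the FOXO1-Tg pool and 4540 in the wild-type pool with the brighter of its probes. A second Foxo1 probe, assigned to the same transcript, read 3188 in the FOXO1-Tg pool and 2853 in the wild-type pool, a log2 ratio of 0.03. All 10 markers of skeletal muscle were detected in both pools. With this scaling all 10 had a ratio below 0, as did 58.3% of the genes detected on both arrays. Their median log2 ratio was -0.19, and Mb, at -1.14, was the 1 marker past 2-fold. In bulk RNA, fewer cells of a type and less RNA per cell cannot be told apart.

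AMPK senses the energy state of a cell. It is a complex of a catalytic alpha subunit, a scaffolding beta subunit that binds glycogen, and a regulatory gamma subunit that binds AMP, ADP, and ATP. The complex becomes active when LKB1 (Stk11) or the calcium-dependent kinase CaMKK2 phosphorylates the activation loop of the alpha subunit. Each subunit has several genes, and the complex with the gamma subunit of Prkag3 is best known from fast glycolytic muscle fibers. In muscle, active AMPK promotes glucose uptake and fatty acid oxidation.

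The array signals of 7 of the 9 genes differed by less than 1.5-fold between the pools. The exceptions were Prkag3, which was lower in the FOXO1-Tg pool, and Camkk2, which was higher. Neither passed 2-fold with the brightest probe of the gene, whereas 8.06% of the genes detected on at least 1 array did, 4.20% with a higher and 3.86% with a lower level. At 1.5-fold, 1 of 9 members was higher, against 9.18% of all genes, and 1 of 9 was lower, against 10.8%. The share of members past 1.5-fold was thus near that of the arrays as a whole. A ratio below 0 was found for 5 of the 9 members and for 58.3% of the genes detected on both arrays. The median log2 ratio of the members was -0.25, and that of all genes detected on both arrays was -0.07.

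**Figure D1:**
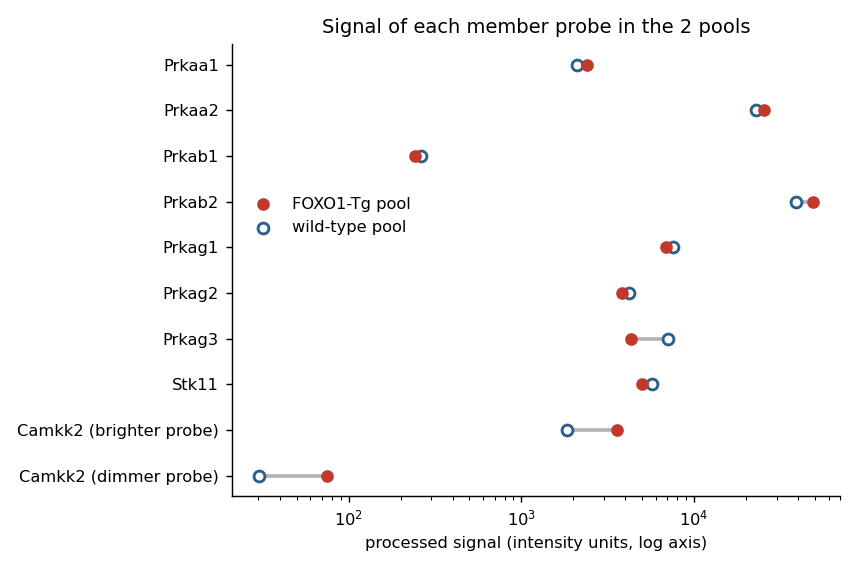
Processed signal (intensity units, log axis) of each of the 10 member probes in the FOXO1-Tg pool (filled red) and the wild-type pool (open blue), 1 array each. The points of Prkag3 and of both Camkk2 probes lie visibly apart, with Prkag3 at 4300.2 in the FOXO1-Tg pool and 7034 in the wild-type pool. Distances along the axis between different probes carry no meaning, since probes differ in brightness.

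The sequences upstream of Prkag3 and Camkk2, the members with a difference beyond 1.5-fold, are shown so that their motifs can be read beside their ratios. They are the 250 bases before the transcription start in RefSeq on GRCm38.p6, at chr1:74748956-74749205 (reverse strand) for Prkag3 and chr5:122779411-122779660 (reverse strand) for Camkk2, written 5′ to 3′ along the gene. Capitals mark matches to the motifs searched, on either strand: the forkhead core TGTTTAC, the E-box CANNTG, and the GC box GGGCGG.
Prkag3: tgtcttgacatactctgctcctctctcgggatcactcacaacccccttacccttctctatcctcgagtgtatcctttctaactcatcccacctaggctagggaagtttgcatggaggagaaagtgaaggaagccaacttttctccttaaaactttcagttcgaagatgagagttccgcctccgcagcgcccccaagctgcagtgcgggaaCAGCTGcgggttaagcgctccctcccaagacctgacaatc
Camkk2: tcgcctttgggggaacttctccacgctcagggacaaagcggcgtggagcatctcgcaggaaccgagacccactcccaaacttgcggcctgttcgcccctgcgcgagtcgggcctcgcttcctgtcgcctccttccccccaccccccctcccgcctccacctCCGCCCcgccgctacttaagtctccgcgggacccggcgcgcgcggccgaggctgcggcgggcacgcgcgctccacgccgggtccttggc
The capitals in Prkag3 are an E-box that lies 40 to 35 bases before the start, and those in Camkk2 are a GC box 89 to 84 bases before it. None of the 11 upstream windows of the 9 members held the forkhead core, which was found in 3.17% of 32851 windows of all genes. With so low a share, its absence from 11 windows does not set the members apart. The FOXO1 binding element given by the study allows A in place of the G of this core. That form and the insulin response element, also given there, were not searched. A Prkag2 window does hold the form with A on its opposite strand. The members are thus not shown to lack FOXO1 sites. An E-box was found in 6 of the 11 member windows and in 66.2% of all windows. A GC box was found in 7 of the 11 member windows, 2 of them among the 3 windows of Prkag2, and in 32.7% of all windows. The member windows were also richer in G and C, with a median of 69.2% (48.4% to 85.2%) against 52.4% over all windows, and the part of base composition in the GC box count was not tested. These are matches of letters in a short stretch, and binding of a factor was not measured.

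Both catalytic subunit genes differed little between the pools. Prkaa1, which encodes the widely expressed AMPKα1, read 2413 in the FOXO1-Tg pool and 2099 in the wild-type pool. Its log2 ratio was 0.07 (scanner error 0.20). Prkaa2, which encodes AMPKα2, the main catalytic subunit of muscle fibers, had 25256 in the FOXO1-Tg pool and 22874 in the wild-type pool, a log2 ratio of 0.01 (scanner error 0.20). Both ratios were within the scanner error of 0, and the gap between them was -0.06 (Prkaa2 minus Prkaa1, scanner error 0.29).

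The beta subunit genes had ratios of opposite sign, each close in size to the scanner error. Prkab1, which encodes the widely expressed AMPKβ1, read 243 in the FOXO1-Tg pool and 264 in the wild-type pool, a log2 ratio of -0.25 (scanner error 0.21). Prkab2, which encodes AMPKβ2, the beta subunit typical of skeletal muscle, had 48609 in the FOXO1-Tg pool and 38711 in the wild-type pool, a log2 ratio of 0.20 (scanner error 0.20). The gap between the 2 genes was 0.45 (Prkab2 minus Prkab1), or 1.54 times its scanner error of 0.29. A gap between 2 ratios does not depend on a scaling factor applied to a whole array.

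The gamma subunit genes were all lower in the FOXO1-Tg pool under every scaling tried, and Prkag3 was the lowest of the 9 members. Prkag3, which encodes AMPKγ3, read 4300.2 in the FOXO1-Tg pool and 7034 in the wild-type pool. The resulting log2 ratio was -0.84 with a scanner error of 0.20, which is 0.559-fold, and 5.77% of all genes had a lower ratio. Prkag2, whose human counterpart is known for mutations that cause a heart disease with glycogen storage, had 3838 in the FOXO1-Tg pool and 4196 in the wild-type pool, a log2 ratio of -0.26 (scanner error 0.20). Prkag1, the gene of the widely expressed AMPKγ1, had a mean signal of 6879 in the FOXO1-Tg pool and 7496 in the wild-type pool over its 10 spots, a log2 ratio of -0.25.

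The repeated Prkag1 spots show the spread between spots within an array. Over the 10 spots, the signals were 6699 at the lowest, 6852 at the median, and 7196 at the highest in the FOXO1-Tg pool, against 7203, 7498, and 7729 in the wild-type pool. The 2 sets of spots did not overlap in these unscaled signals. How many other probes with repeated spots share this was not counted. The log2 ratio of a spot ranged from -0.30 to -0.20, with an SD of 0.03. Spots of 1 array share the same RNA pool and labeling, so they are not replicates of the genotype. Among 293 probes that have 8 or more spots, the median SD was 0.05, whereas the scanner error of Prkag1 was 0.20.

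**Figure D2:**
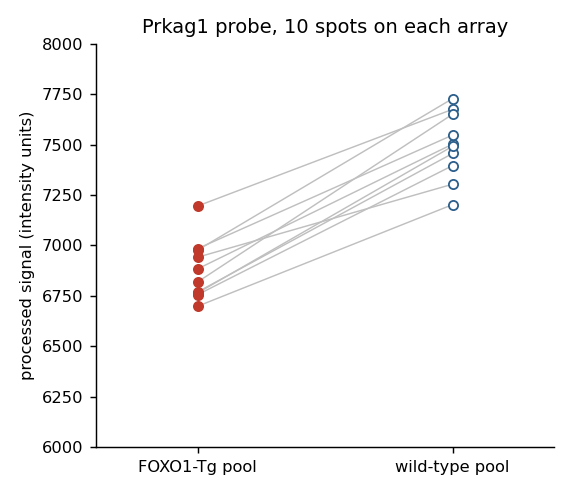
Processed signal (intensity units, on an axis that does not start at 0) of the 10 spots of the Prkag1 probe on the array of the FOXO1-Tg pool (filled red, left) and of the wild-type pool (open blue, right). Lines join the same spot position on the 2 arrays. All 10 spots were dimmer on the FOXO1-Tg array, with a highest value of 7196 there and a lowest value of 7203 on the wild-type array.

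The gap of Prkag3 to the other gamma genes was -0.59 against Prkag1 and -0.58 against Prkag2, each about 2.0 times its scanner error of 0.29. The ratios of Prkag2 and Prkag1 differed by less than 0.01 on the log2 scale (scanner error 0.29). Whether these gaps would hold between mice was not tested. Most genes of fast fibers, where AMPKγ3 is found, were closer to 0 than Prkag3. The 16 fast fiber genes had a median of -0.18, none of them passed 2-fold in the higher direction, and Myoz3, at -1.36, was the 1 gene past it in the lower direction. The next lowest was Casq1, which encodes the calcium store protein calsequestrin, at -0.86, while Mylpf stood at 0.11 and Actn3 at -0.03. The summed level of the 16 genes, in units of the 75th-percentile signal of the array, was 6871 in the FOXO1-Tg pool and 7743 in the wild-type pool. The 12 slow fiber genes had a median of -1.36, with 7 past 2-fold in the lower direction, and a summed level of 241 in the FOXO1-Tg pool and 585 in the wild-type pool. All of these genes were detected in both pools. The part of fiber type in the Prkag3 ratio was not tested.

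The upstream kinase genes had ratios of opposite sign. Stk11, which encodes LKB1, read 5001 in the FOXO1-Tg pool and 5704 in the wild-type pool, a log2 ratio of -0.32 (scanner error 0.20). Camkk2 had 3598 in the FOXO1-Tg pool and 1845 in the wild-type pool with its brighter probe, which is 1.78-fold or 0.83 on the log2 scale (scanner error 0.20). A higher ratio was found for 5.46% of all genes. The second Camkk2 probe, which is assigned to another transcript, had 75.1 in the FOXO1-Tg pool and 30.4 in the wild-type pool, which is 2.26-fold or 1.17 on the log2 scale (scanner error 0.31). It was marked as well above background on both arrays, but its raw spot was only 2.87 times the local background in the FOXO1-Tg pool and 2.36 times in the wild-type pool. Both probes therefore had the same direction, and the gap to Stk11 was 1.15 with the brighter probe, or 4.0 times its scanner error of 0.29.

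**Figure D3:**
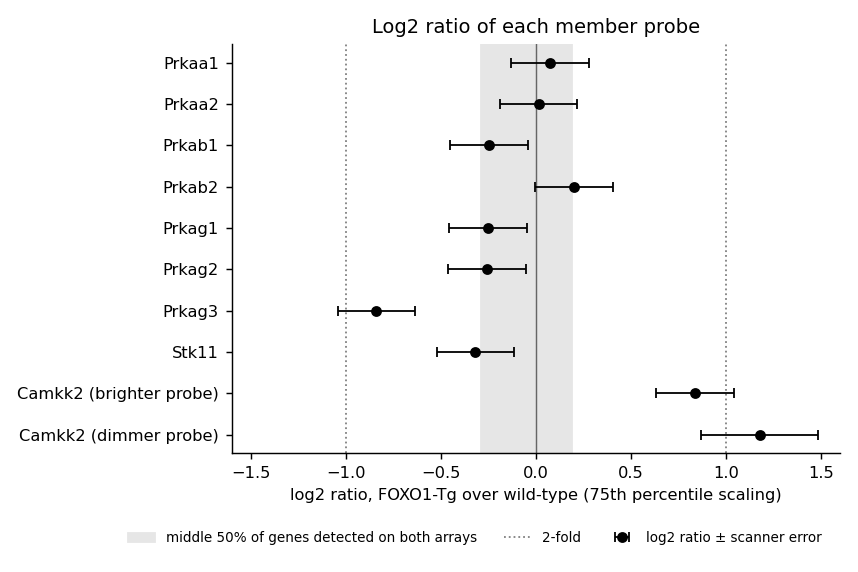
Log2 ratio (FOXO1-Tg over wild-type) of each of the 10 member probes, with bars for the scanner error of the ratio. The grey band spans the middle 50% of genes detected on both arrays (-0.29 to 0.19), and dotted lines mark 2-fold. Prkag3 at -0.84 and the brighter Camkk2 probe at 0.83 lie outside the band and inside the 2-fold lines, and the dimmer Camkk2 probe lies beyond 2-fold at 1.17.

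Camkk2 is expressed in many cell types, and markers of several cell types other than muscle fibers were also higher in the FOXO1-Tg pool. Among 16 adipocyte markers, 12 passed 2-fold in that direction, with a median of 1.73 and a summed level of 927 in the FOXO1-Tg pool and 688 in the wild-type pool. The brightest of them, Car3, weighs most in the summed level and was the 1 marker with a ratio below 0 (-0.15). It read 316866 in the FOXO1-Tg pool and 321133 in the wild-type pool. Adipoq, which encodes adiponectin, read 20241 in the FOXO1-Tg pool and 5035 in the wild-type pool. Of 12 keratinocyte markers, 9 were more than 2-fold higher, with a summed level of 11.6 in the FOXO1-Tg pool and 2.87 in the wild-type pool, and 5 of the 12 were detected in the FOXO1-Tg pool only. Among those detected in both pools 5 were past 2-fold, and with normexp and quantile normalization 6 of the list were. Of 10 Schwann cell and nerve markers, 5 were more than 2-fold higher (median 0.90), and of 10 fibroblast markers 1 was (median 0.57). None of 11 macrophage markers (median 0.32) and none of 12 endothelial markers (median -0.19) passed 2-fold. The part of these cell types in the Camkk2 ratio was not tested.

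Other genes that act on AMPK were mostly close to 0. Of 20 such genes, all detected in both pools, 1 was more than 2-fold higher, none was more than 2-fold lower, 14 had a ratio below 0, and the median was -0.18. The gene past 2-fold was Sesn1, which encodes a stress-induced protein that acts on AMPK and mTOR signaling. It had 8792 in the FOXO1-Tg pool and 3654 in the wild-type pool, a log2 ratio of 1.14 (scanner error 0.20). Camkk1, the paralog of Camkk2, had 808 in the FOXO1-Tg pool and 542 in the wild-type pool, a log2 ratio of 0.45. Its gap to the brighter Camkk2 probe was 0.39 (Camkk2 minus Camkk1), or 1.34 times the scanner error of 0.29. The gap was 0.73 with the second Camkk2 probe and 0.56 with the median over both.

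Partners of LKB1 had ratios below 0, as did Stk11 and 58.3% of the genes detected on both arrays. The ratio of Strada lies above 0 under at least median scaling and no scaling. Strada, Stradb, and Cab39l were named after their values were seen. LKB1 works in a complex with a STRAD pseudokinase and the scaffold protein MO25. Cab39, which encodes MO25α, was the lowest of the 20 genes, with 29838 in the FOXO1-Tg pool and 39530 in the wild-type pool. Its log2 ratio was -0.54 for the brighter probe and -0.55 for the second (scanner error 0.20 each). Cab39l, the gene of MO25β, followed at -0.40, and its other probes had -0.21 and -0.42. Stradb had -0.31 and Strada had -0.08.

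**Figure D4:**
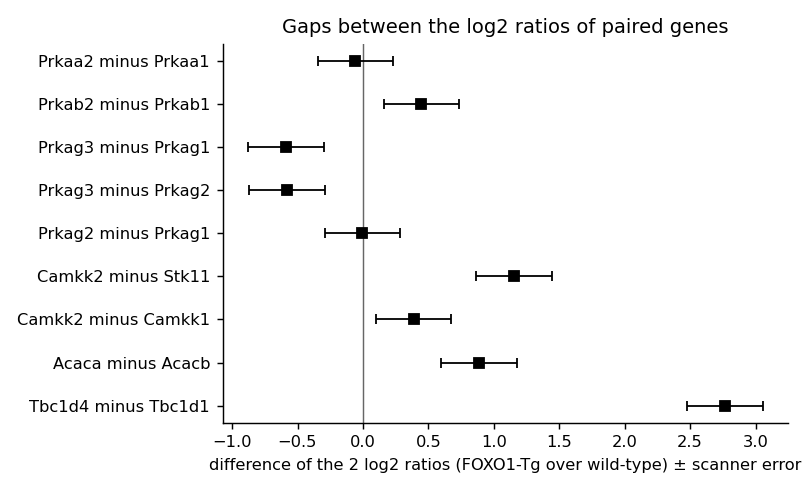
Difference between the log2 ratios (FOXO1-Tg over wild-type) of paired genes, first minus second, with bars for the scanner error of the difference. Camkk2 minus Stk11 at 1.15 and Tbc1d4 minus Tbc1d1 at 2.77 lie farthest from 0, while Prkag2 minus Prkag1 and Prkaa2 minus Prkaa1 (-0.06) are close to 0.

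LKB1 also phosphorylates several kinases related to AMPK. Of 14 genes of AMPK-related kinases, not all of them known LKB1 substrates, 13 were detected and Melk was not well above background in either pool. None passed 2-fold, 8 had a ratio below 0, and the median was -0.04. The sign of this median held under 8 of 12 alternative ways of processing, and it reached 0.08 with no scaling of the arrays. The highest was Sik2, a salt-inducible kinase known from adipose tissue, with 2452 in the FOXO1-Tg pool and 1241 in the wild-type pool. Its log2 ratio was 0.85 for the brighter probe and 0.98 for the second. Mark2 and Nuak1 were the lowest at -0.43 and -0.37. Brsk2 was near the detection limit, and its probes did not give 1 direction. A probe detected in the FOXO1-Tg pool only read 20.8 in that pool and 15.1 in the wild-type pool, a bound of 1.08-fold, and the other probe read 17.4 in the FOXO1-Tg pool and 17.8 in the wild-type pool, with no bound.

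Genes downstream of AMPK went both ways. The 27 genes reported here are mainly substrates of the kinase, along with Slc2a4 and Cpt1b, which were included as metabolic genes that act downstream. All 27 were detected (Foxo3 in the FOXO1-Tg pool only), Tbc1d1 was more than 2-fold lower, none of the others passed 2-fold, 19 had a ratio below 0, and the median was -0.23. At 1.5-fold, 4 were higher and 4 were lower.

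The RabGAP genes Tbc1d1 and Tbc1d4, whose products hold back glucose transporters until they are phosphorylated, had ratios of opposite sign. Tbc1d1 had 5202 in the FOXO1-Tg pool and 18131 in the wild-type pool, and its second probe had 49.8 in the FOXO1-Tg pool and 182 in the wild-type pool. The log2 ratios were -1.93 (scanner error 0.20) and -2.00 (scanner error 0.23). Tbc1d4 had 11444 in the FOXO1-Tg pool and 5863 in the wild-type pool, a log2 ratio of 0.84, and its second probe had 0.85 (scanner error 0.20 each). The gap between the brightest probes was 2.77 (Tbc1d4 minus Tbc1d1, scanner error 0.29), the widest of the 9 gaps computed.

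Slc2a4, the gene of the insulin-responsive glucose transporter GLUT4, had 116208 in the FOXO1-Tg pool and 169055 in the wild-type pool, a log2 ratio of -0.67 (scanner error 0.20). Gys1, which encodes muscle glycogen synthase, had ratios of -0.60 and -0.58 with its 2 probes. Pfkfb3, whose product stimulates glycolysis, had 96273 in the FOXO1-Tg pool and 53050 in the wild-type pool, a log2 ratio of 0.73, and its second probe had 0.85. Both probes of Gys1 and both probes of Pfkfb3 thus gave the same direction.

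The acetyl-CoA carboxylase genes, whose products are the classical substrates of AMPK in lipid metabolism, differed in their ratios. Acacb, the form of muscle, had 34415 in the FOXO1-Tg pool and 34040 in the wild-type pool, a log2 ratio of -0.11 (scanner error 0.20) that lies above 0 without scaling. Acaca, the form of lipogenic tissue, had 5943 in the FOXO1-Tg pool and 3179 in the wild-type pool, a log2 ratio of 0.77, but its dimmer probes had 0.08 and -0.78. The gap of 0.89 (Acaca minus Acacb) was 0.22 with the median over probes. Srebf1, the gene of a lipogenic transcription factor, was the second lowest of the 27 at -0.90 (scanner error 0.21). The adipocyte markers given above were higher in the FOXO1-Tg pool as well, and their part in the ratios of Acaca, Lipe (0.76), and Sik2 was not tested.

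**Figure D5:**
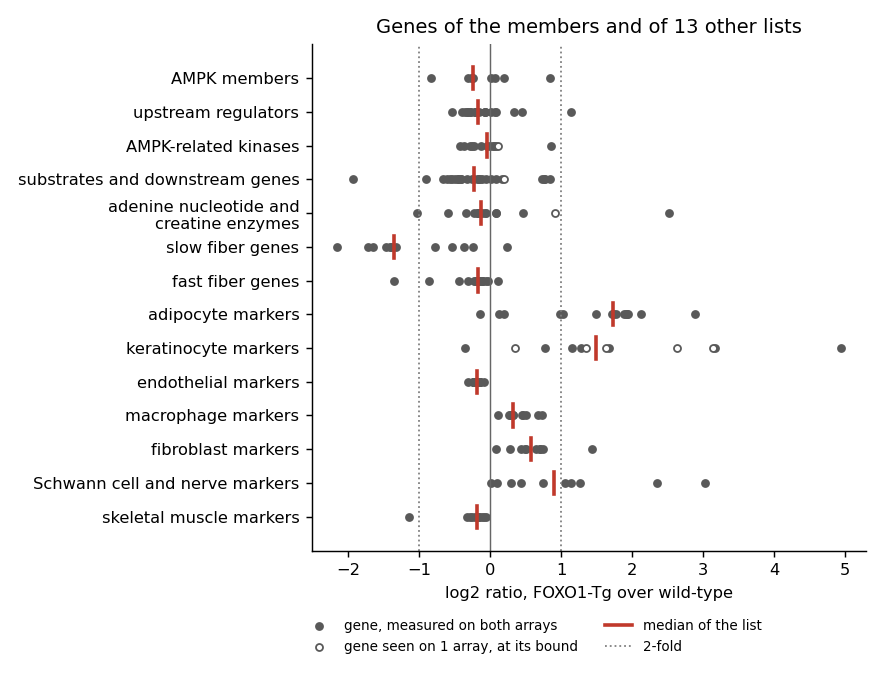
Log2 ratio (FOXO1-Tg over wild-type) of each detected gene in the member list and in 13 other lists, with filled points for genes measured on both arrays, open points for genes seen on 1 array (set at their bound), and red bars for list medians. The members lie between -0.84 and 0.83 around a median of -0.25. The other genes that act on AMPK (-0.18) and the downstream genes (-0.23) have medians close to it. So do lists not chosen for AMPK, namely endothelial markers (-0.19), skeletal muscle markers (-0.19), and fast fiber genes (-0.18). Slow fiber genes (-1.36) and adipocyte markers (1.73) lie far from 0.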

How the data were processed

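Both RNA pools were labeled with a single dye and read on Agilent mouse arrays, 1 array per pool. The deposited intensity values are the background-subtracted processed signals of Feature Extraction, deposited without scaling between arrays (the value table holds the same numbers). How the study scaled the arrays for its own fold changes is not given here. The file headers name version 11.0.1.1 of this software, whereas the submitters' notes give 9.5.

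Outlier flags removed 237 of 59305 non-control spots. Signals were put on the log2 scale relative to the 75th percentile of each array, and spots of a probe were averaged. Detection of a probe required 50% or more of its spots to be well above background, which 65.8% of all spots were in the FOXO1-Tg pool and 65.5% in the wild-type pool. No spot was saturated. The number of arrays limits the precision. Probes were named through unversioned RefSeq transcripts of a GRCm38.p6 gene table, which named 28329 of 55670 probes. The arrays use mm9, so no probe position was taken from it. The probe sequences were not used here. Each gene is represented by its brightest detected probe. A gene seen on 1 array has a bound only, set by the array that missed it as the larger of its own value there and the dimmest spot still well above background (14.6 for the FOXO1-Tg pool and 17.5 for the wild-type pool).

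The scanner errors of both signals were combined in quadrature. The members and the 13 other lists were chosen with earlier results of these data known, and the gaps between genes were added after seeing the data. Named genes were all members, Foxo1, and the 2 highest and 2 lowest genes of each list with those past 2-fold. Some that this rule covers, mostly cell type markers, are left out, and Strada, Stradb, Cab39l, Camkk1, and the metabolic genes within 2-fold were named after their values were seen. From the list of downstream genes, 1 gene is not reported here and was left out of its counts. The steps were tested on simulated arrays. Alternatives were 4 other scalings, normexp background correction with an offset of 50 on median signals, the value table, 2 filters on dim probes, outlier spots kept, 2 other choices of probe, a floor, and other fold thresholds. Upstream sequences are from RefSeq (GRCm38.p6), in which all 9 members were matched. Python 3.11.15, numpy 2.4.6, pandas 2.3.3, matplotlib 3.10.9, R 4.3.3, and limma 3.58.1 were used.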

Additional observations from a re-analysis of the deposited data

How the results depend on the processing

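No paired analysis was possible because there is 1 pool per genotype, which also means that leaving out a sample could not be tried. The 5 members below 0 stayed at 5 under all 12 alternatives, and the median of the members lay between -0.25 and -0.12. Several of the alternatives could not move a member. The value table holds the same numbers, no member spot had an outlier flag, and all were well above background on both arrays. The value table, the kept outlier spots, the filters on dim probes, and the floor thus left every member as it was. Only the other scalings, normexp, and for Camkk2 the choice of probe could move a member. Of 108 values for single members, including those fixed in this way, 107 stayed within the scanner error. The exception was Camkk2 with its second brightest probe, at 1.17. Members past 2-fold numbered 0, but 1 with the median over probes (Camkk2, at 1.0) or the second brightest probe, and 2 at a 1.5-fold threshold. Prkag3 lay between -0.84 and -0.71, and Prkag3 minus Prkag1 between -0.59 and -0.56. All members but Camkk2 were read by 1 named probe, so choices of probe could not change them. Probes left without a gene name could also read a member, and their values were not used. Of 312 values for the other lists, 5 moved. They were the number of keratinocyte markers past 2-fold (9, but 5 where detection on both arrays was required), their median (1.49, but 1.28 with that filter and 1.0 with normexp and quantile normalization), and the number of adenine nucleotide and creatine genes past 2-fold (2, but 1 with normexp and quantile normalization or the second brightest probe).

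Over all genes, 1343 passed 2-fold, against 621 with normexp and quantile normalization, 2757 with no filter on dim probes, 3333 at 1.5-fold, and 530 at 3-fold. The share of higher genes among them was 52.1%, but 62.1% to 68.1% with the 5 other ways to put the arrays on a common scale. Of these, no scaling raised the median of all genes most, by 0.13, followed by median scaling at 0.11, and every member moved up by that same amount. With no filter on dim probes the share was 37.0%.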

Other observations

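Enzymes that set the AMP level were read as well, because AMP is what the gamma subunits sense. Of 16 genes of adenine nucleotide and creatine metabolism, all detected (Ak5 in the FOXO1-Tg pool only), Ak4 was past 2-fold higher and Nt5c1a just past 2-fold lower, and the median log2 ratio was -0.13. Ak4, which encodes a mitochondrial adenylate kinase, read 3701 in the FOXO1-Tg pool and 590 in the wild-type pool, which is 5.73-fold or 2.52 on the log2 scale (scanner error 0.20). A second Ak4 probe was dim and was detected in the FOXO1-Tg pool only, where it was at least 1.13-fold higher. Nt5c1a, which encodes a cytosolic nucleotidase that degrades AMP in muscle, had 49.2 in the FOXO1-Tg pool and 92.1 in the wild-type pool, a log2 ratio of -1.03 (scanner error 0.24). It was within 2-fold with the 4 other scalings (-0.93 to -0.86) and with normexp and quantile normalization (-0.43). Ak5, whose bound was 0.91, passed 2-fold with those 4 scalings (1.02 to 1.23) and had 0.42 with normexp and quantile normalization, so the count in each direction depends on the scaling. The muscle forms differed less, with -0.16 for the creatine kinase gene Ckm, -0.19 for the adenylate kinase gene Ak1, -0.35 for the AMP deaminase gene Ampd1, and -0.60 for the mitochondrial creatine kinase gene Ckmt2.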
